A study of Mus musculus with 29 samples.

Results

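Lithium was compared with fluoxetine in the prefrontal cortex of mice that carry the K228E allele of Tbr1, using the 15 RNA sequencing libraries of treated carriers out of 29 libraries in the series. The members were chosen by genotype and drug as the labels give them. They were 7 libraries from heterozygous (HT) mice given lithium (3 females and 4 males) and 8 from HT mice given fluoxetine (4 females and 4 males). Libraries of HT mice given vehicle (3 females and 3 males) and of wild-type (WT) mice given vehicle (4 females and 4 males) are used only to show where untreated levels lay. All animals were C57BL/6J and were taken at postnatal day 40. Every lithium and fluoxetine animal carried the Tbr1 allele, so the comparison holds the genotype constant and says nothing of either drug in wild-type mice. The labels give no dose, route or length of treatment. They do not say whether libraries with the same number came from littermates or whether a library pooled animals, so p-values measure only the spread between these samples.

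The Tbr1 protein is a transcription factor that deep-layer neurons of the cortex need, and changes in the gene are linked to autism. Lithium, a mood stabiliser, inhibits the kinases encoded by Gsk3a and Gsk3b and the inositol phosphatases encoded by Impa1, Impa2 and Inpp1. Fluoxetine is an antidepressant that blocks the serotonin transporter. Both drugs are used for mood disorders, and the comparison asks where cortical transcripts of carriers differ between them.

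The recovered reads per library ranged from 25.52 M to 31.35 M in the 15 libraries. The cortical markers Cux2 and Fezf2 and the excitatory neuron gene Slc17a7 were present in every library, with Cux2 between 2820 and 3400 in lithium libraries and between 2717 and 3429 in fluoxetine libraries (values on the authors' normalised scale). Markers of neighbouring tissue differed between libraries. The 26 striatal projection neuron markers summed to 20735 to 34431 in lithium libraries and 18815 to 54147 in fluoxetine libraries, and the 24 olfactory markers in the table summed to 14168 to 32802 in lithium libraries and 16551 to 51084 in fluoxetine libraries. No member of either list was at 0 throughout a group. The mean of the striatal or the olfactory list lay more than 1 (log2) from the median of the 15 libraries in 7 libraries (lithium female 2 and males 1 and 3, and fluoxetine females 1 and 2 and males 1 and 2). In bulk tissue, fewer cells of a type and less RNA per cell cannot be told apart.

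Over both sexes no gene passed the test between lithium and fluoxetine. Limma called 0 of 17467 genes (0%) at an adjusted p under 0.05, with sex as a covariate and Benjamini-Hochberg adjustment over all genes tested. An unadjusted p under 0.05 was reached by 520 genes (2.98%), of which 254 (1.45%) were higher and 266 (1.52%) lower in lithium. The smallest adjusted p was 0.9997. In edgeR 0 genes passed and 518 had an unadjusted p under 0.05, and in DESeq2 0 passed as higher and 1 as lower, with 409 at an unadjusted p under 0.05. That gene model, Gm5641, named after its values were seen, was at 0 in all 7 lithium libraries and in 4 of 8 fluoxetine libraries, with a highest value of 685.5. For the 13790 genes averaging 50 or more, the median standard error was 0.057 (log2) and the median 95% interval reached 0.121 (log2) to either side.

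The genes with the smallest p over both sexes are given as values, since none passed. Jdp2 encodes a repressor of AP-1 transcription factors. Its lowest, median and highest values were 992.9, 1059 and 1174 in lithium libraries, against 844.4, 944 and 990 in fluoxetine libraries. The groups did not overlap, which was so for 4 genes with lithium above (0.0229%) and 4 with lithium below (0.0229%). Jdp2 differed by 0.195 ± 0.0428 (log2, SE, n = 7 and 8) with an adjusted p of 0.9997 in limma. HT vehicle libraries lay between 878.6 and 1064 for Jdp2, which spans the gap between both drug groups.

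Zbtb16, a zinc finger transcription factor that glucocorticoids induce, had a lowest, median and highest value of 1103, 1155 and 1564 with lithium and 738.4, 1026 and 1394 with fluoxetine. The groups overlapped through the fluoxetine females (1143 to 1394), while the 4 lithium males (1103 to 1300) all lay above the 4 fluoxetine males (738.4 to 909.8). The difference over both sexes was 0.344 ± 0.0829 (log2, SE). Per2, a core repressor of the circadian clock, had 1593, 1828 and 2013 with lithium and 1289, 1585 and 1937 with fluoxetine, a difference of 0.21 ± 0.0591 (log2, SE). The highest fluoxetine library, a female, lay above the median of the lithium libraries.

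Among genes lower with lithium, Mmp14, a membrane-bound matrix metalloprotease, had a lowest, median and highest value of 272.7, 287.2 and 337.9 with lithium and 278.1, 369.5 and 433.8 with fluoxetine. Its difference was -0.277 ± 0.0782 (log2, SE), and fluoxetine female 2 (278.1) and male 2 (325.5) lay among the lithium values. The other genes named by rank and higher with lithium were Fam53b, Nr6a1, the antisense transcript Kcnmb4os2, Ubtd2 and Plk3, with differences between 0.157 (Plk3) and 0.26 (Kcnmb4os2) on the log2 scale. Those lower were the pseudogene Rpl28-ps1, Mcm9, Abcc10, Cpne2, Aldh1a1, AW047730 and Hvcn1, with differences between -0.318 (Hvcn1) and -0.145 (Aldh1a1). Kcnmb4os2 lies opposite Kcnmb4, and since it is unstated if reads were assigned by strand, the reads of both may not be separable. Jdp2, Rpl28-ps1, Mcm9, Abcc10, Aldh1a1, AW047730 and Hvcn1 also overlap a gene on the other strand, Fam53b overlaps Fgfr2, and Rpl28-ps1 can share reads with the ribosomal gene it copies.

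**Figure D1:**
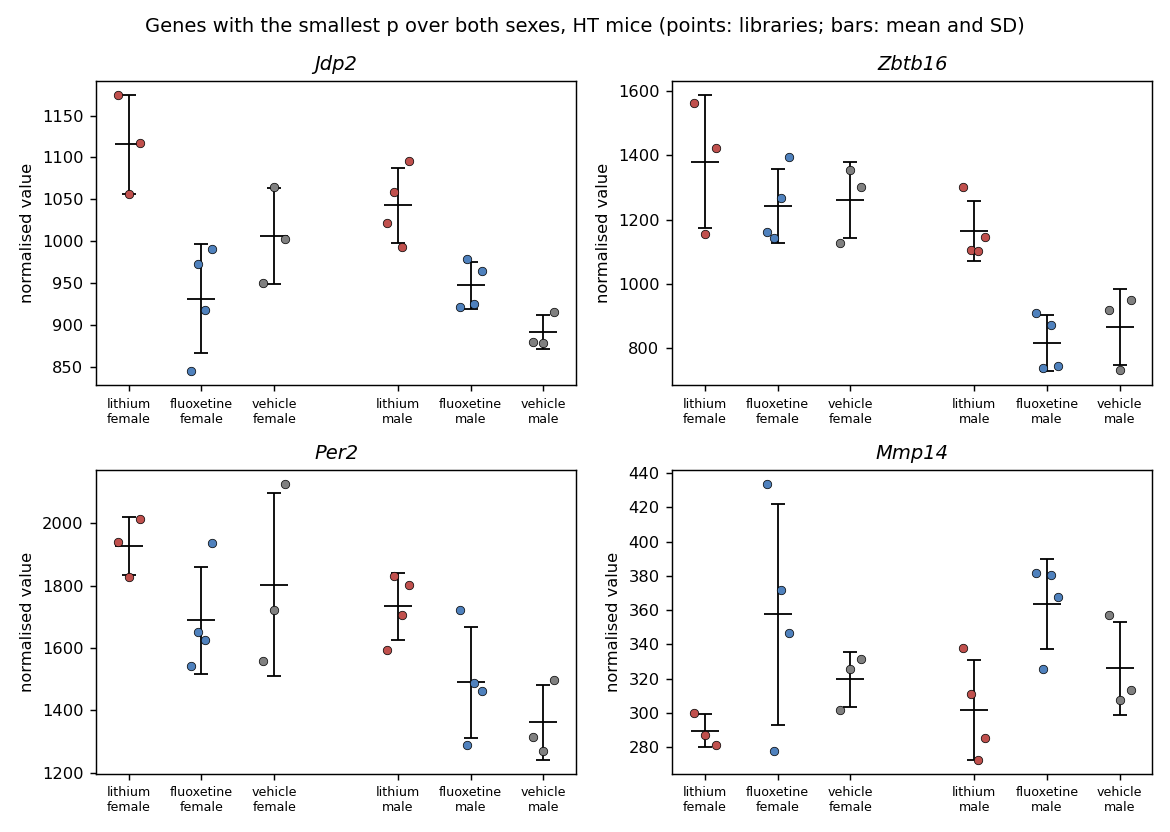
Normalised values (y axis, not starting at 0) of Jdp2, Zbtb16, Per2 and Mmp14 in HT libraries by drug and sex (x axis); points are libraries and bars are the mean with SD. Jdp2 in the 7 lithium libraries (992.9 to 1174) lay above all 8 fluoxetine libraries (844.4 to 990), and Zbtb16 was separated in males alone.

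Of the genes that encode direct targets of the drugs, none measured here passed the test. Gsk3a had a lowest, median and highest value of 5551, 6263 and 6676 with lithium and 5330, 6087 and 6462 with fluoxetine, a difference of 0.0385 with a 95% interval from -0.0471 to 0.124 (log2). Gsk3b had 4888, 5497 and 6150 with lithium and 4736, 5301 and 6012 with fluoxetine, and its interval ran from -0.08 to 0.184. In Gsk3b the difference was -0.112 ± 0.0755 in females and 0.192 ± 0.0699 in males (log2, SE), and the test between the sexes had an adjusted p of 0.227 in limma. Impa1 and Bpnt1, a further phosphatase that lithium inhibits, differed by 0.0124 ± 0.036 and 0.0265 ± 0.0367 (log2, SE). Impa2 differed by 0.079 ± 0.0661 and Inpp1 by -0.0448 ± 0.0415. Of the 25 measured genes of lithium-inhibited enzymes and the inositol cycle, 16 were above 0, the median was 0.0124 (log2) and 0 passed the test.

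The serotonin receptors Htr1a and Htr2a differed by -0.0522 ± 0.0715 and -0.0467 ± 0.0634 (log2, SE). Of 18 measured genes for serotonin receptors and handling, 5 were above 0, with a median of -0.0495 and 0 past the test. The serotonin transporter gene Slc6a4 was not analysed here. Bdnf, a growth factor often studied with both drugs, differed by 0.0763 ± 0.0518. Tbr1 itself ranged from 3777 to 4738 with lithium and from 2858 to 4766 with fluoxetine, a difference of 0.093 ± 0.0836, while HT vehicle libraries spanned 3728 to 4593 and WT vehicle libraries 2151 to 3432.

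Several gene lists leaned to one side over both sexes without any member passing. Over all genes tested, 51.1% were above 0 and the median was 0.0015 (log2). Of 25 endoplasmic reticulum chaperone and unfolded protein response genes, 23 were above 0, with a median of 0.0572. The mean of this list in each library, centred over the 29 libraries, overlapped between the drugs. It ran from -0.027 to 0.137 with lithium and from -0.035 to 0.0805 with fluoxetine. Examples are the chaperone gene Dnajb11 at 0.094 ± 0.0371 and Herpud1, a component of protein degradation at that membrane, at 0.109 ± 0.0472 (log2, SE). Of 23 circadian clock genes, 19 were above 0, with a median of 0.0313. The mean of the clock list also overlapped, at 0.00188 to 0.0777 with lithium and -0.0256 to 0.1 with fluoxetine. Next to Per2, the clock repressor Bhlhe40 stood at 0.124 ± 0.0457. Of 41 presynaptic release genes 33 were above 0, with a median of 0.0381, and of 26 cytosolic heat shock chaperones 22, with a median of 0.042.

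Other lists lay below 0. Cytosolic ribosomal proteins had 12 of 73 above 0 and a median of -0.0324, and 5 of 31 myelin genes were above 0, with a median of -0.0209. Meningeal and fibroblast markers had 5 of 29 above 0 and a median of -0.122, and astrocyte markers 7 of 30 and a median of -0.0394. Striatal markers had 1 of 26 above 0 and a median of -0.388, and olfactory markers 2 of 24 and a median of -0.415. Without the 7 libraries with far marker means these medians were 0.0533 and 0.215, and those of the endoplasmic reticulum and clock lists were 0.0367 each. Those libraries were left out by their striatal and olfactory means, so the change in the medians of these 2 lists follows in part from that choice. The part of neighbouring tissue in the single genes above was not tested beyond these fits.

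Immediate early genes, which neurons transcribe on activation, had 23 of 39 above 0 and a median of 0.0333. Arc, a regulator of synaptic receptors, had a lowest, median and highest value of 6772, 9419 and 10440 with lithium and 5654, 7528 and 8880 with fluoxetine. Ier5 had 2186, 2467 and 2676 with lithium and 1860, 2221 and 2420 with fluoxetine. Neither gene passed, the groups overlapped for both, and the HT vehicle libraries had 8584 to 10370 for Arc, within the range of the lithium libraries.

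Within each sex, as contrasts of 1 fit over the 15 libraries with 1 mean per drug and sex and a shared spread, limma called 0 genes in females (0%) and 0 in males (0%), although 1578 genes (9.03%) in females and 1255 (7.18%) in males reached an unadjusted p under 0.05. In females 5.27% of genes were higher and 3.77% lower with lithium at that level, and in males 3.22% were higher and 3.96% lower. In females lithium lay wholly above fluoxetine for 4.60% of genes and wholly below for 699 genes, and in males wholly above for 2.31% and wholly below for 2.93%. EdgeR called 0 in each sex. DESeq2 called 36 higher and 12 lower in females and 3 higher and 47 lower in males. In females the genes with the smallest p among those higher with lithium were Cox7b, Ndufa1 and Rab5if, and among those lower AI504432, Lrrcc1 and Bclaf1. Cox7b, a subunit of cytochrome c oxidase, came nearest to the threshold, at 0.335 ± 0.0497 (log2, SE, n = 3 and 4) with an adjusted p of 0.0956 in limma. In males Zbtb16 (0.514 ± 0.0974), Nr6a1 (0.353 ± 0.0798) and Pcdhga8 (0.257 ± 0.0647) led the genes higher with lithium. Ndufa2 (-0.422 ± 0.064), Ndufb1-ps (-0.288 ± 0.0474) and Rps10 (-0.275 ± 0.0469) led those lower. Pcdhga8 shares exons with other genes of the protocadherin gamma cluster, so its value is uncertain.

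The estimated lithium to fluoxetine difference had opposite signs in females and males for a group of short, highly expressed genes of respiration and protein synthesis. The test of that contrast was the female minus male difference of lithium minus fluoxetine, fitted with 1 mean per drug and sex. It called 46 genes (0.263%) at an adjusted p under 0.05 in limma, 42 higher (0.240%) and 4 lower (0.0229%). EdgeR called 50 higher and 5 lower, of which 45 were among the 46, and DESeq2 278 higher and 118 lower. At an unadjusted p under 0.05 there were 2207 genes (12.6%), of which 1164 were higher (6.66%) and 1043 lower (5.97%). All 42 genes called higher were above 0 in females (0.127 to 0.471, log2) and below 0 in males (-0.426 to -0.119). Limma called none of them within either sex, and for 32 the groups did not overlap in either sex. These genes were chosen by this same contrast, so their opposite signs and lack of overlap follow in part from that choice. Over all genes, 106 (0.607%) had lithium wholly above fluoxetine in females and wholly below in males, 37 (0.212%) had the reverse, and 14 (0.0802%) were separated in the same direction in both sexes.

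**Figure D2:**
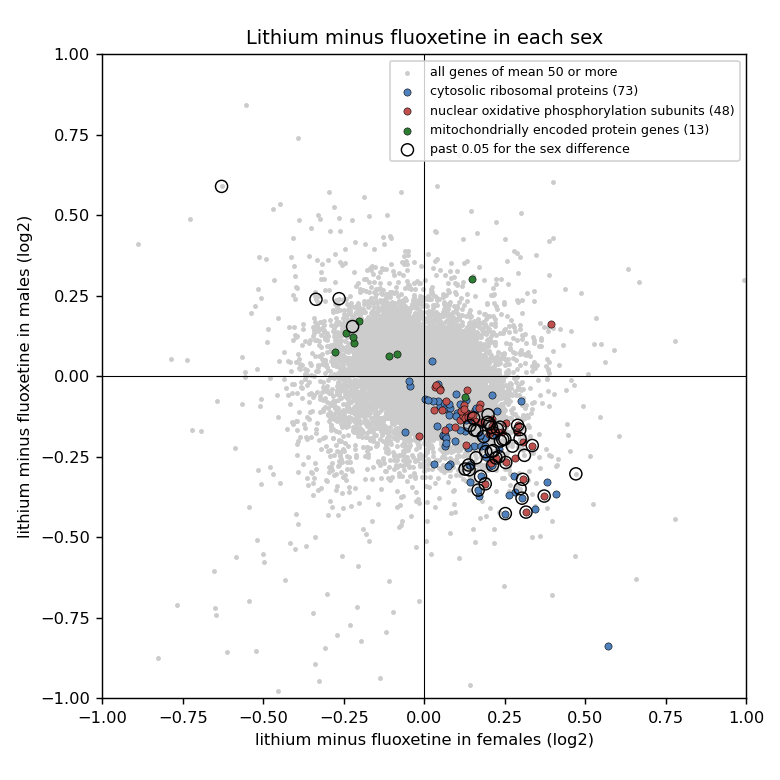
Lithium minus fluoxetine (log2) in females (x axis) against males (y axis) for 13790 genes with a mean value of at least 50; 47 points lie outside the axes, coloured points are members of 3 lists and black rings mark the 46 genes called for the sex difference. Subunits of oxidative phosphorylation and ribosomal proteins lie to the lower right, above 0 in females and below 0 in males.

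Oxidative phosphorylation, in which the respiratory chain and ATP synthase of the mitochondrial inner membrane make ATP, led the genes called. Cox7b (ENSMUSG00000031231, GRCm38 chrX:106015700-106022450) had 3831, 3598 and 3580 in lithium females and 2811, 3121, 2780 and 2928 in fluoxetine females. In males it had 3196, 3189, 3415 and 3194 with lithium and 3821, 3558, 3792 and 3912 with fluoxetine. The groups did not overlap in either sex, and their order turned round between the sexes. The female minus male difference was 0.55 ± 0.0677 (log2, SE, n = 3, 4, 4 and 4), with an adjusted p of 0.00623 in limma. HT vehicle libraries had 3543 to 4125 in females and 3211 to 3424 in males, so on this scale the lithium libraries lay near vehicle of their own sex, and the fluoxetine libraries lay below vehicle in females and above it in males.

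Ndufa1 and Ndufa2 encode small accessory subunits of complex I. Ndufa1 had 1409, 1260 and 1240 in lithium females and 1088, 1022, 936.9 and 977.4 in fluoxetine females. In males it had 1076, 1033, 1252 and 1140 with lithium and 1489, 1416, 1384 and 1525 with fluoxetine. All lithium females lay above all fluoxetine females, and all lithium males below all fluoxetine males.

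Ndufa2 had 1096, 1120 and 1073 in lithium females and 974.3, 909.4, 860.5 and 788.2 in fluoxetine females. In males it had 889.7, 842.7, 983.8 and 893.8 with lithium and 1297, 1168, 1204 and 1165 with fluoxetine. The female minus male difference was 0.744 ± 0.0963 for Ndufa1 and 0.738 ± 0.0941 for Ndufa2 (log2, SE), each with an adjusted p of 0.00623 in limma. Ndufa2 overlaps Tmco6 on the other strand.

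Cox7a2, another cytochrome c oxidase subunit, averaged 2911 ± 117 in lithium females and 2357 ± 130 in fluoxetine females (SD, n = 3 and 4). In males it averaged 2470 ± 170 with lithium and 3082 ± 200 with fluoxetine (SD, n = 4 each). Ndufb8, a further complex I subunit, averaged 3029 ± 203 in lithium females and 2540 ± 125 in fluoxetine females, and 2624 ± 96.9 in lithium males and 3159 ± 128 in fluoxetine males. Their female minus male differences were 0.63 ± 0.0863 and 0.521 ± 0.0739 (log2, SE), with adjusted p of 0.0103 and 0.0117 in limma.

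Of the 48 nuclear oxidative phosphorylation subunits listed, all 48 were above 0 for the female minus male difference, against 48.8% of all genes, and 8 passed the test. The others past it were Atp5e (0.523 ± 0.0869) of ATP synthase, Uqcrq (0.442 ± 0.0824) of complex III and Ndufb9 (0.476 ± 0.0919). Of the 15 fits that leave out 1 library, Atp5e passed in 3, Uqcrq in 2 and Ndufb9 in 1. None of these passed with quantile normalisation or with a trend on transcript length removed. The list's median was 0.267 (log2), against -0.00605 over all genes. In females 47 of 48 were above 0 with a median of 0.154, and in males 1 of 48 with a median of -0.138. The mean of the list, centred over the 29 libraries, lay between 0.0449 and 0.0946 in lithium females and between -0.173 and -0.00942 in fluoxetine females. It lay between -0.0899 and -0.0112 in lithium males and between 0.0746 and 0.189 in fluoxetine males, and these ranges did not overlap within either sex. HT vehicle libraries had 0.0381 to 0.0725 in females and -0.118 to 0.0504 in males. Outside the list, and counted after the values were seen, 6 more subunits were called higher, namely Ndufa6, Ndufa13, Ndufb6, Ndufs6, Uqcrh and Atp5l, which makes 14 of the 42. Ndufs6, Ndufb6 and Ndufa13 overlap another gene, as do Chchd10, Rab5if, Ndufb1-ps, Ndufb9 and Fam208a among the genes called, so reads of these may be shared.

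**Figure D3:**
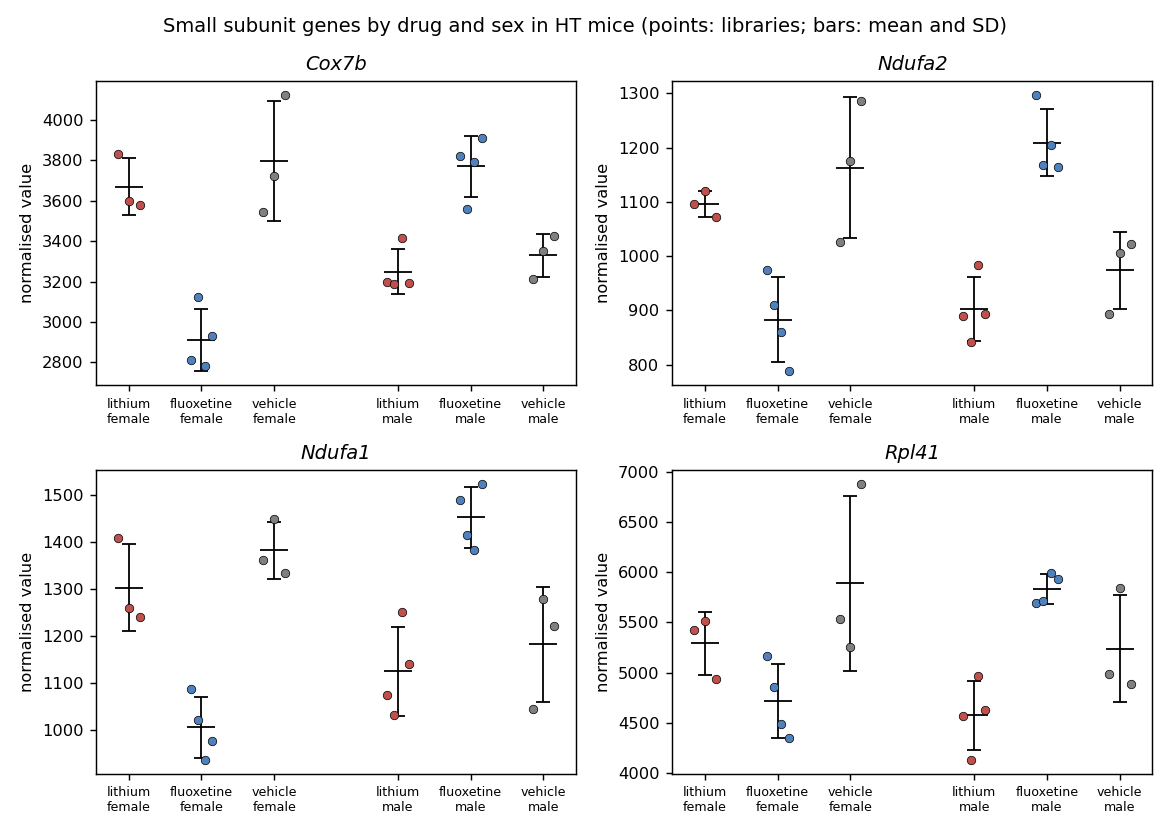
Normalised values (y axis, not starting at 0) of Cox7b, Ndufa2, Ndufa1 and Rpl41 by drug and sex in HT mice (x axis); points are libraries and bars are the mean with SD. For all 4 genes the fluoxetine mean lay below the lithium mean in females and above it in males, with vehicle shown to the right of each pair.

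Cytosolic ribosomal proteins, which build both subunits of the ribosome, followed the same order of lithium and fluoxetine. Of 73 measured, 70 were above 0 for the female minus male difference, with a median of 0.287, and 6 passed the test. In females 70 of 73 were above 0 with a median of 0.131, and in males 1 of 73 with a median of -0.181. The mean of the list in each library was centred over the 29 libraries. In males it ran from -0.192 to -0.0525 with lithium, 0.0463 to 0.179 with fluoxetine and -0.0806 to 0.046 in HT vehicle. In females it ran from 0.0045 to 0.109 with lithium, -0.196 to -0.00773 with fluoxetine and -0.00196 to 0.117 in HT vehicle. Rpl41 had 5426, 5514 and 4934 in lithium females and 5169, 4859, 4490 and 4350 in fluoxetine females, where the groups overlapped. In males it had 4573, 4131, 4963 and 4632 with lithium and 5695, 5712, 5990 and 5935 with fluoxetine, without overlap. Its female minus male difference was 0.521 ± 0.0908 (log2, SE), with an adjusted p of 0.0436 in limma. The others called were Rps10 (0.413), Rpl38 (0.682), Rpl27a (0.485), Rpl36 (0.678) and Rpl26 (0.488). Each of these 6 passed in 2 or 3 of the 15 fits that leave out 1 library, and none passed with quantile normalisation or with a trend on transcript length removed. Ribosomal protein genes have near-identical processed copies, so the authors' counting could have split their reads.

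Proteasome subunits, which form the main protein-degrading complex of the cytosol, had 29 of 31 above 0 for the female minus male difference and a median of 0.167. The core subunits Psmb3 (0.442 ± 0.0769), Psmb6 (0.372 ± 0.0712) and Psma7 (0.282 ± 0.0546) passed the test. They passed in 1 to 3 of the 15 fits that leave out 1 library, and not with quantile normalisation or the length trend removed. Psmb3 averaged higher with lithium than with fluoxetine in females by 0.208 ± 0.0564 and in males the difference was -0.233 ± 0.0522 (log2, SE), neither of which passed within its sex. Glycolysis genes had 17 of 22 above 0 with a median of 0.111 and 0 called. Among the other genes called higher were Park7, which protects against oxidative damage, at 0.339, Hint1 at 0.481, the mitochondrial protein gene Chchd10 at 0.491, the mitochondrial ribosomal gene Mrpl20 at 0.39 and Oaz1, the antizyme of polyamine synthesis, at 0.367 (log2). These 5 were picked after their values were seen.

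Promoters of the genes called higher were read from RefSeq (GRCm38.p6), which held 32 of the 42. The letters CCGGAAG, the core that ETS family factors bind, were sought on both strands in the 250 bases before each start. They were in 11 of 32 (34.4%), in 17 of 55 ribosomal protein promoters (30.9%), in 7 of 37 oxidative phosphorylation promoters (18.9%) and in 1687 of 12450 promoters of all genes tested (13.6%). The letters ATGGCGG, bound by YY1, were in 2 of 32 (6.2%), against 4.0% of all genes. The palindrome of the factor NRF1 was in 0 of 32, in 2 of 37 oxidative phosphorylation promoters and in 1.7% of those of all genes. A match is a description of letters and not evidence of binding. The 100 bases before the start of 3 ribosomal protein genes are shown because they hold the ETS letters, given in capitals, and those of Cox7b because it has the smallest p and holds none:
Rps10 (chr17:27635245-27635344, minus strand): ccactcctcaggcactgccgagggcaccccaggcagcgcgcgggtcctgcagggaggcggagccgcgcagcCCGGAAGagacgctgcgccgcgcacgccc
Rpl41 (chr10:128549169-128549268, minus strand): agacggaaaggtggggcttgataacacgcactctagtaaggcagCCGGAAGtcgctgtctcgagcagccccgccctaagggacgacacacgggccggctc
Rpl38 (chr11:114668480-114668579, plus strand): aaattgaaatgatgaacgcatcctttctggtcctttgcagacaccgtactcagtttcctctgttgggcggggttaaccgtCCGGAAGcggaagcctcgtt
Cox7b (chrX:106015600-106015699, plus strand): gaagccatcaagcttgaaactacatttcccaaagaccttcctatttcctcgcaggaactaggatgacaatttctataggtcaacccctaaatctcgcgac
RefSeq places these ribosomal gene starts inside the gene span of the annotation used for coordinates elsewhere.

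In the other direction 4 genes were called, with lithium below fluoxetine in females and above it in males. AI504432, a long noncoding RNA, had 932.7, 949.3 and 895.5 in lithium females and 1155, 1033, 1232 and 1270 in fluoxetine females. In males it had 1061, 1167, 1159 and 1093 with lithium and 925.4, 1036, 949.3 and 886.1 with fluoxetine. The groups did not overlap in either sex, and the female minus male difference was -0.576 ± 0.0949 (log2, SE), with an adjusted p of 0.0379 in limma. Mob1b, an adaptor of Hippo pathway kinases, differed by -0.506 ± 0.0962 and Fam208a, a subunit of a gene silencing complex, by -0.378 ± 0.0734. AI504432 passed in 3 of the 15 fits that leave out 1 library, and Mob1b and Fam208a in 1 each. None of them passed with quantile normalisation, without the intensity trend or with a trend on transcript length removed. The fourth gene called was the gene model Gm28661, named after its values were seen. It had 107697 to 206080 in lithium libraries, a level like that of the mitochondrially encoded mt-Nd4 (118900 to 153600). Whether Gm28661 shares reads with mitochondrial genes was not tested, so its value is uncertain.

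Chromatin regulators linked to autism lay on that side as a list. Of 29, 0 were above 0 for the female minus male difference, with a median of -0.188 and 0 called (smallest adjusted p 0.233 in limma). In females 1 of 29 was above 0, with a median of -0.105, and in males 27 of 29, with a median of 0.0871. The mean of the list, centred over the 29 libraries, overlapped between the drugs in both sexes. It lay between -0.0857 and 0.0163 in lithium females and between -0.0169 and 0.131 in fluoxetine females. In males it lay between -0.0276 and 0.0465 with lithium and between -0.213 and 0.00815 with fluoxetine. The histone methylation factor Setd5 differed by -0.205 ± 0.0714 (log2, SE). Tbr1-linked genes had 4 of 26 above 0 and a median of -0.128, and glutamate receptor and postsynaptic density genes 11 of 47 and a median of -0.106, with 0 called in either.

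The 13 protein genes of the mitochondrial genome had a median of -0.322 for the female minus male difference, with 3 above 0 and 0 called. Their single values spread widely within groups. The cytochrome c oxidase gene mt-Co2, for example, had 35520, 37230, 108200 and 30840 in lithium males and 84510, 93610, 102500 and 111700 in fluoxetine males, and its difference, 2.12 ± 0.501 (log2, SE), had the opposite sign to the list's median. The mean of the list overlapped between the drugs in both sexes. The median moved to -0.0716 with quantile normalisation.

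**Figure D4:**
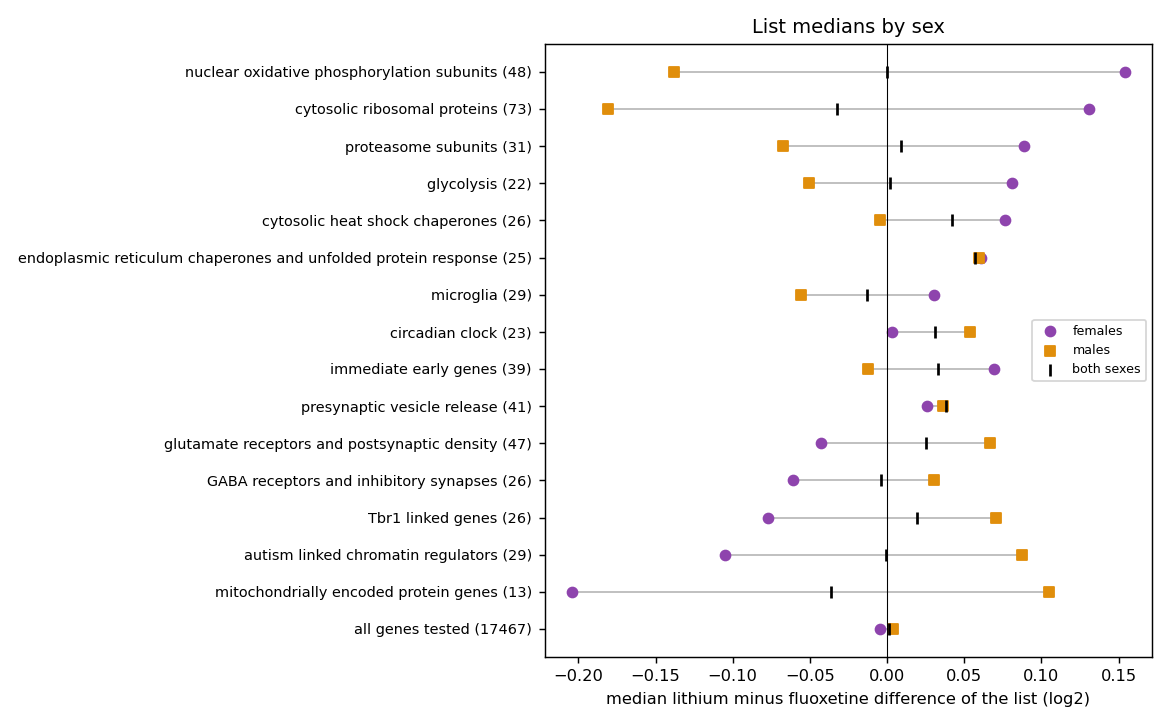
Median lithium minus fluoxetine difference (x axis, log2) of 15 gene lists and of all genes tested (rows, number of genes measured in brackets) in females, males and both sexes. The oxidative phosphorylation list had medians of 0.154 in females and -0.138 in males, and the endoplasmic reticulum list 0.0607 in females and 0.0593 in males.

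No marker of neighbouring tissue or of glia was called for the female minus male difference. Striatal markers had 25 of 26 above 0 with a median of 0.687 and a median SE of 0.752 (log2), and olfactory markers 15 of 24 with a median of 0.144 and a median SE of 0.95. Myelin genes had 28 of 31 above 0 with a median of 0.164, microglial genes 25 of 29 with a median of 0.149 and astrocyte genes 22 of 30 with a median of 0.058. Their part in the result was not tested. Without the 7 libraries with far marker means the striatal and olfactory medians were -0.044 and -0.161. Because those libraries were picked by the means of these same lists, this change follows in part from the choice.

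Transcript length moved with this contrast. The genes called higher had a median transcript length of 690.5 bases, against 2157 bases over all genes tested. In classes of genes averaging 50 or more, the median female minus male difference was 0.142 (log2) for transcripts under 500 bases, 0.0799 for 500 to 1000, 0.0545 for 1000 to 2000, -0.0171 for 2000 to 4000 and -0.0997 over 4000. With a smooth trend on length removed in each library, 5 genes were called, 4 higher and 1 lower, all of them among the 46. The list medians were then 0.2 for oxidative phosphorylation, 0.215 for ribosomal proteins, 0.126 for proteasome subunits and -0.102 for chromatin regulators. What sets the relation with length was not tested. A single batch name is given in the labels for the 15 libraries.

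**Figure D5:**
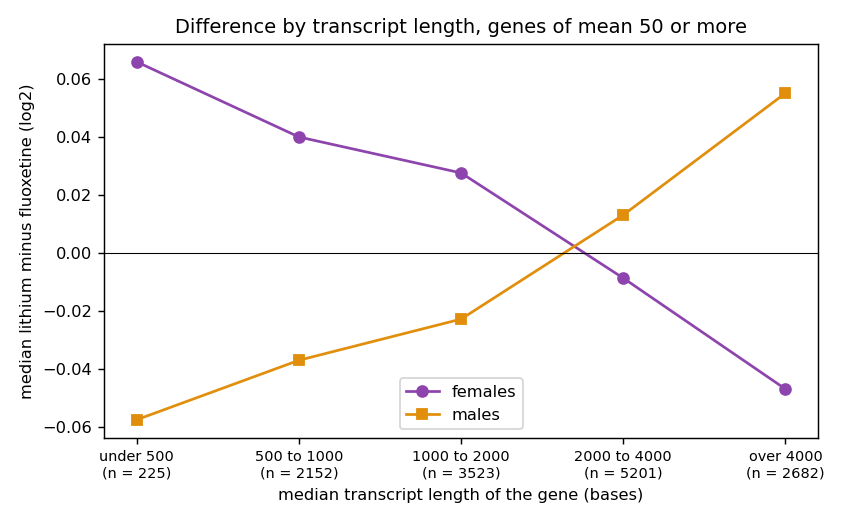
Median lithium minus fluoxetine difference (y axis, log2) in 5 classes of transcript length (x axis, bases) for females and males. The medians are 0.0659 in females and -0.0575 in males for transcripts under 500 bases and -0.0469 and 0.0551 for those over 4000 bases.

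The number of genes called depended on single libraries. Leaving out each library in turn gave 5 to 10 called genes in 13 of 15 fits, 48 without fluoxetine female 1 and 88 without fluoxetine female 2. Cox7b, Ndufa1, Ndufa2, Cox7a2 and Ndufb8 passed in all 15 of these fits, with highest adjusted p of 0.0238, 0.0238, 0.0251, 0.0453 and 0.0433 in limma. Cox7a2 and Ndufb8 did not pass without the intensity trend, nor Ndufb8 with the length trend removed. Without the 7 libraries with far marker means, 3 genes were called and 1 of them was among the 46. Every drug and sex group lost libraries in that fit, so the fall in calls cannot be told apart from the loss of replicates. None of the 5 genes that passed in every leave-out fit passed there, with adjusted p from 0.0723 (Ndufa2) to 0.182 (Ndufb8) in limma, while the list medians were 0.367 for oxidative phosphorylation and 0.388 for ribosomal proteins, larger than with all libraries. With the marker means as covariates 66 genes were called, 36 of them among the 46.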

How the data were processed

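RNA from prefrontal cortex was sequenced with a TruSeq Stranded mRNA kit, per the labels' protocols; whether the counting used strand is not given in the sources used here. The submitters' processing notes name Salmon 0.11.2, DESeq2 1.19.11, R 3.6.0 and GRCm38. The authors deposited a normalised signal per gene: gene counts divided by a size factor for each library. Whole reads were recovered from the steps of these values (tolerance 0.0001); in 3 columns (fluoxetine females 1 and 2 and male 3) the step was near 1 and a separate check on low values did not accept recovered reads, although 100% of values were whole multiples of the step. Their read totals and the edgeR and DESeq2 results rest on those steps. Reads per library ranged from 22.81 M to 31.71 M in the 29 libraries.

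Genes that reached 10 in 3 or more of the 15 libraries were kept, 17467 of 18240 identifiers. Limma 3.58.1 (R 4.3.3) with an intensity trend was fitted to log2(value + 1), which understates changes of low genes. The fit over both sexes had drug and sex as terms, and the fits by sex and for the sex difference had 1 mean per drug and sex. P-values were adjusted by Benjamini-Hochberg over all genes tested. EdgeR 4.0.16 and DESeq2 1.42.0 were run on the recovered reads as alternatives, with other scalings, pseudocounts, filters, weights, a replicate block, each library left out, marker covariates and, chosen after seeing the data, a transcript length trend.

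Named genes were the 8 of each direction with the smallest p over both sexes, 3 per direction for the other contrasts, list members past the threshold or among the 4 with the smallest p, and set target genes, where ranked genes had to average 50 or more; models lacking an assigned gene name were only counted. The members and gene lists were chosen with earlier results of these data known. Promoter letters were read from RefSeq.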

Additional observations from a re-analysis of the deposited data

Results flagged for a closer look

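The lithium to fluoxetine difference itself differed between the sexes for 46 genes, by the test of that difference in limma. The named subunits of respiration were Cox7b (0.55, log2), Ndufa2 (0.738), Ndufa1 (0.744), Cox7a2 (0.63), Ndufb8 (0.521), Atp5e (0.523), Uqcrq (0.442) and Ndufb9 (0.476). The named ribosomal proteins were Rps10 (0.413), Rpl41 (0.521), Rpl38 (0.682), Rpl27a (0.485), Rpl36 (0.678) and Rpl26 (0.488). The proteasome subunits were Psmb3 (0.442), Psmb6 (0.372) and Psma7 (0.282). AI504432 (-0.576), Mob1b (-0.506) and Fam208a (-0.378) differed the other way. Of these named genes, Cox7b, Ndufa1, Ndufa2, Cox7a2 and Ndufb8 passed in all 15 fits that leave out 1 library. Each of the others passed in 1 to 3 of those fits.

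Single libraries stood apart from the rest of their group for 7 of 117 groups of values tested by Dixon's criterion, which chance meets in about 1 in 20 groups. Over the 8 fluoxetine libraries these were Kcnmb4os2 at 66.57 in male 1, Mcm9 at 145 in female 4 and Aldh1a1 at 1083 in female 2. Within one sex they were Cox7b at 3415 in lithium male 3, Rpl38 at 1683 and Rpl26 at 3215 in lithium male 2, and Atp5e at 1386 in fluoxetine male 4.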

How the results depend on the processing

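For the female minus male difference, 46 genes were called. The number was 5 with quantile normalisation, 15 with no filter, 70 with a filter at 50, 3 with no intensity trend, 73 with robust moderation and 126 with library weights. It was 108 with all 29 libraries, 396 with DESeq2, 160 at a threshold of 0.1, 3 without the 7 libraries with far marker means and 5 with the length trend removed. It ranged from 5 to 88 with each library left out. Over both sexes DESeq2 called 1 gene, and 0 to 0 were called with each library left out. In females 1 was called with library weights, 48 with DESeq2, 1 at a threshold of 0.1 and 4 without the far-marker libraries, and 0 to 1 with each library left out. In males 2 were called with library weights, 1 with all 29 libraries, 50 with DESeq2 and 1 without the far-marker libraries, and 0 to 1 with each library left out. The causes were not tested.

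By the rule used, replicate numbers were not taken as pairs, and the main fits left pairing out. Over 7 same-number pairs the correlation of deviations ran from 0.0171 to 0.477 and was over 0.1 in 5. Among the fluoxetine libraries of their sex, 6 of 7 lithium libraries correlated best with their own number. That is a hint from the data and not the design, so pairing is not settled. With the replicate block 71 genes were called for the sex difference, 33 of them among the 46, 7 in males and 2 over both sexes (Slc35d3 and Sh3rf2, both lower). Of 1850 alternative values of named genes, 9 had the opposite sign, all of genes that had not passed. Without the far-marker libraries these were Bdnf (-0.0381), Gsk3a (-0.0254), Impa1 (-0.0382), Inpp1 (0.00219) and Tbr1 (-0.0033). Impa1 also turned with marker covariates and without fluoxetine female 1 or lithium female 2, and Htr2a without lithium female 1 (0.0125). A further 277 values lost their call and 21 gained it.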
